A study of Mus musculus with 2 samples.

Results

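Keratins are the intermediate filament proteins of epithelial cells. The keratin genes were measured here, by RNA sequencing, in whole uteri of 2 C57BL/6 mice on day 4 of pregnancy, 1 library per animal, called uterus 1 and uterus 2 after the sample titles WT1 and WT2. They were taken by symbol: every row of the deposited table named Krt followed only by digits, which gave 48 of 22740 genes. Keratin-associated protein genes (Krtap) were left out, as were 4 rows with a letter after the number (Krt6a, Krt6b, Krt33a and Krt33b), all 4 listed at 0 in both uteri. The labels give a single group, with no treatment, genotype contrast or age, so the data give the level of each gene and the spread between 2 animals, and no test between conditions exists. Values are the authors' RPKM, reads per kilobase of transcript scaled to library size, which allows levels of different genes to be compared.

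A keratin filament is built from pairs of a type I (acidic) and a type II (basic to neutral) chain, so an epithelial cell needs at least one gene of each type. Cells of simple, single-layered epithelia make mainly Krt8 and Krt18, with Krt7, Krt19, Krt20 or Krt23 according to the tissue. Stratified epithelia such as epidermis, cornea and vagina use other pairs, among them Krt5 with Krt14 in basal cells and Krt1 with Krt10 in the layers above, and hair follicles use a further set. The mouse uterus is lined by a simple columnar luminal epithelium that continues into the glands, and it is covered on the outside by mesothelium, which also makes simple keratins. The 48 genes were split by this textbook grouping into 6 simple, 19 stratified and 22 hair keratins, with Krt222 left unclassed.

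The reads behind each RPKM value were recovered as whole numbers and summed to 3710755 in uterus 1 and 4121596 in uterus 2. Keratins held 1417 and 1733 of them, or 0.0382% and 0.0420%. For 6764 of 17424 genes, Krt19 and Krt7 among them, the reads are the smallest whole numbers that fit. These sums and shares, and the tests on reads further on, thus rest in part on minimum counts. Intervals given with levels are exact Poisson 95% intervals on these reads and cover counting error only.

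The keratins of this tissue were simple keratins. Krt18, Krt8, Krt19, Krt23 and Krt7 were the 5 highest, all simple, and no other keratin reached a mean of 10 RPKM. Simple keratins held 96.6% of the summed keratin RPKM in uterus 1 and 97.4% in uterus 2, a mean of 97.0% ± 0.512 (SD, n = 2). Stratified keratins held 2.83% and 2.12%, and hair keratins 0.371% and 0.361%. These small shares depend on the class list: the mean stratified share of 2.47% became 12.5% with Krt23 counted as stratified, and the mean hair share of 0.366% became 3.64% with the row 5430421N21Rik, described further on, counted as a hair keratin. At 1 RPKM or more in both uteri there were 7 of the 48 keratins (14.6%), against 58.4% of all genes in the table. Another 30 keratins (62.5%) were listed at 0 in both, against 23.4% of all genes.

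Krt18, a type I chain and the usual partner of Krt8, had the highest level. It lay at 70.4 RPKM in uterus 1 (378 reads, interval 63.5 to 77.9) and 94.3 RPKM in uterus 2 (562 reads, interval 86.7 to 102.4). The 2 intervals did not overlap, and the mean was 82.4 ± 16.9 RPKM (SD, n = 2), rank 611 among all genes.

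Krt8, the type II partner of Krt18, followed at 69.4 RPKM (480 reads, interval 63.3 to 75.8) and 78.5 RPKM (603 reads, interval 72.4 to 85.0), a mean of 73.9 ± 6.46 RPKM. The order of Krt18 and Krt8 is not settled, since in uterus 1 they differed by less than their counting intervals. The ratio of Krt8 to Krt18 RPKM was 0.985 in uterus 1 (exact binomial 95% interval 0.859 to 1.13) and 0.832 in uterus 2 (0.741 to 0.935). Krt8 and Krt18 together made up 58.9% and 65.9% of the summed keratin RPKM.

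Krt19, a short type I keratin that lacks most of the tail of other keratins, lay at 51.1 RPKM in uterus 1 (269 reads) and 47.9 RPKM in uterus 2 (280 reads), a mean of 49.5 ± 2.25 RPKM. It stood below Krt8 in both animals, with no overlap of the intervals. Krt23, also type I, lay at 25.6 RPKM (151 reads) and 24.6 RPKM (161 reads), a mean of 25.1 ± 0.714 RPKM. Krt23 was thus the third type I chain of this tissue and stood above Krt7 in both uteri.

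Krt7, a type II keratin of simple ductal and glandular epithelia, lay at 12.99 RPKM (79 reads, interval 10.3 to 16.2) and 10.1 RPKM (68 reads, interval 7.82 to 12.8), a mean of 11.5 ± 2.06 RPKM. Its level depends on the gene model. The length behind the deposited value is 1586 bases, and the deposited end lies 2507 bases before the last annotated end of Krt7 in GENCODE M1; reads beyond it were not analysed here. No annotated transcript matches the length used for Krt7 or Krt19, so their reads are the smallest whole numbers possible. Krt20, the remaining simple keratin and a type I gene known from the gut and the urothelium, was listed at 0 in uterus 1 and had 1 read in uterus 2 (0.122 RPKM).

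**Figure D1:**
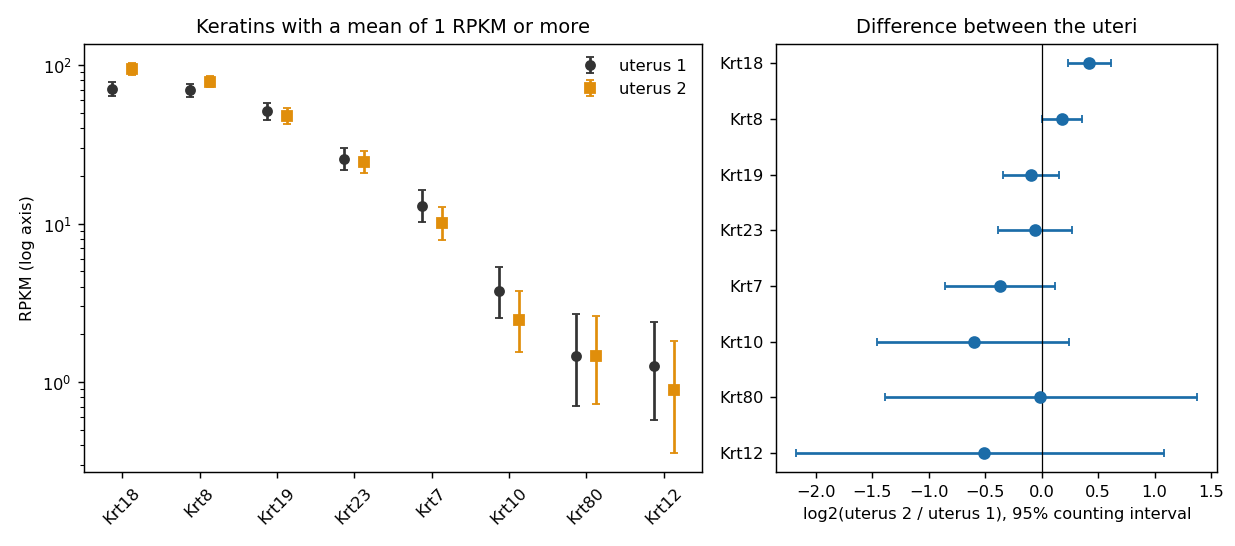
Left, RPKM on a log axis of the 8 keratins with a mean of 1 RPKM or more in uterus 1 (circles) and uterus 2 (squares), with exact Poisson 95% intervals on the recovered reads. Right, log2 ratio of uterus 2 over uterus 1 with its exact 95% counting interval: the intervals of Krt18 (0.23 to 0.61) and Krt8 (0.0031 to 0.35) lie above 0 and those of the other 6 include 0.

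Of the 19 stratified keratins, 3 averaged 1 RPKM or more and 11 were listed at 0 in both uteri. Krt10, the type I keratin of differentiated epidermal cells, was the highest at 3.74 RPKM (30 reads) in uterus 1 and 2.47 RPKM (22 reads) in uterus 2. Krt1, its usual type II partner, had 0 and 1 read. Krt80, a type II keratin described in many epithelia, lay at 1.47 RPKM (10 reads) and 1.46 RPKM (11 reads). Krt12, known from the corneal epithelium, lay at 1.27 RPKM (9 reads, interval 0.579 to 2.40) and 0.887 RPKM (7 reads, interval 0.357 to 1.83). The levels of Krt80 and Krt12 therefore differed by less than their counting error.

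The basal cell pair Krt5 and Krt14 was listed at 0 in both uteri, as were Krt9, Krt13, Krt16, Krt24, Krt42, Krt76, Krt77, Krt78 and Krt79. Krt4, of mucosal stratified epithelia, had 0 and 3 reads, Krt17 had 0 and 2, and Krt2 and Krt15 had 1 read each in uterus 1 alone. Over the 29 keratins listed at 0 with an annotated length, 3 reads, taken here as the one-sided limit that a count of 0 allows, would correspond to 0.192 to 0.593 RPKM. Rpl26, a ribosomal protein gene that cells in general use, is also listed at 0 in both libraries, so a listed 0 is not read as absence.

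Hair keratins were near or at 0. None of the 22 reached 1 RPKM in either uterus, and 19 were listed at 0 in both: Krt25 to Krt28 and Krt71 to Krt74 of the inner root sheath, Krt75 of the companion layer, and Krt31, Krt32, Krt34, Krt35, Krt39, Krt40, Krt81, Krt82, Krt84 and Krt86 of the hair shaft. The exceptions were Krt85 with 4 and 1 reads, the row named Krt83 with 0 and 5 reads and Krt36 with 1 read in each. The deposited span of Krt85, 175.8 kb, covers 10 other rows of the table, so its reads are uncertain. The unclassed Krt222, a type I gene, had 4 and 5 reads (0.381 and 0.430 RPKM). In all, the 10 keratins above 0 with a mean under 1 RPKM had at most 5 reads in either library.

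Symbols of hair keratins have changed since the table was made. In RefSeq of build GRCm38.p6 the accession of the row named Krt83 (NM_001003668) is called Krt87, and 3 rows outside the symbol rule are keratins: 5430421N21Rik (NM_001201323) is called Krt83, 1700011A15Rik Krt88 and 4732456N10Rik Krt90. The last 2 were listed at 0 in both uteri. 5430421N21Rik, a type II hair keratin by its present name, lay at 7.42 RPKM (50 reads) in uterus 1 and 9.63 RPKM (72 reads) in uterus 2, a mean of 8.53 ± 1.56 RPKM. That level stands between Krt7 and Krt10, and far above the hair keratins taken by symbol. Its transcript is 95.1% identical to Krt81 over 1383 bases, 94.6% to Krt86 and 94.2% to the row named Krt83, and Krt81 and Krt86 were listed at 0. Whether reads were assigned to the wrong one of these genes was not tested, so all 4 levels are uncertain in that respect. With 5430421N21Rik counted, which was chosen after its value was seen, the simple keratin share became 93.8%.

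Seen by chain type, 26 members were type I and 22 type II. Type I genes summed to 152.8 RPKM in uterus 1 and 171.2 RPKM in uterus 2. Type II genes summed to 84.6 and 91.3 RPKM. The ratio of type II to type I was 0.554 and 0.533, a mean of 0.544 ± 0.0147 (SD, n = 2), so the type I sum was higher in both animals. The size of this excess is uncertain. It depends on how reads that fit copies of Krt8 and Krt18, described further on, were treated, and on the gene model of Krt7. Without the lengths, on recovered reads, the ratio was 0.673, and Krt8 against Krt18 alone gave 0.909. Krt18 itself stood above Krt8 in uterus 2 beyond counting error, but not in uterus 1. Further type I transcripts came from Krt19 and Krt23, at 0.726 and 0.363 of the Krt18 level in uterus 1 and 0.508 and 0.261 in uterus 2, whereas Krt7 was the only other type II keratin above 2 RPKM among the members. These are transcript levels, and protein was not measured.

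The genes lie in a pair of clusters. On build NCBIM37 (mm9), 25 members, all type I and all on the minus strand, lie on chromosome 11 between 99094412 and 100131185. The other 23 lie on chromosome 15 between 101180002 and 101862457, 22 of them type II, and the last is the type I gene Krt18. Expression was patchy along both clusters. Of the members on chromosome 15, those averaging 1 RPKM or more sat at the ends: Krt80 and Krt7 were the first and second members, Krt8 (101827142 to 101834773, minus strand) and Krt18 (101858647 to 101862457, plus strand) were the 22nd and 23rd, and none of the 19 members between Krt7 and Krt8 reached 1 RPKM. Of those 19, 14 were listed at 0 in both uteri and the highest value was 0.723 RPKM. The row 5430421N21Rik (101315561 to 101321943), no member by symbol but a keratin in RefSeq, lies inside that stretch and was expressed there at 7.42 and 9.63 RPKM, so the whole stretch was not silent. Krt8 and Krt18 point away from each other with 23873 bases and no other row of the table between them.

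On chromosome 11, Krt10, Krt12, Krt20 and Krt23 were 4 rows in a run, positions 7 to 10 of 25, and held 3 of the 4 members averaging 1 RPKM or more there. Krt19 (100002126 to 100007233) stood alone at position 20. The 9 rows between Krt23 (99339287 to 99354424) and Krt19, 7 of them hair keratins, had no value above 0.157 RPKM, and the 5 rows after Krt19 none above 0.311 RPKM. The nearest rows outside the clusters were all above 1 RPKM. On chromosome 11 they were Smarce1, a chromatin remodelling subunit, at 38.1 ± 1.86 RPKM and Eif1, a translation factor, at 77.8 ± 18.9 RPKM. On chromosome 15 they were 6030408B16Rik, before Krt80, at 7.44 ± 0.548 RPKM and Eif4b, a translation factor, after Krt18, at 185.7 ± 12.6 RPKM.

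**Figure D2:**
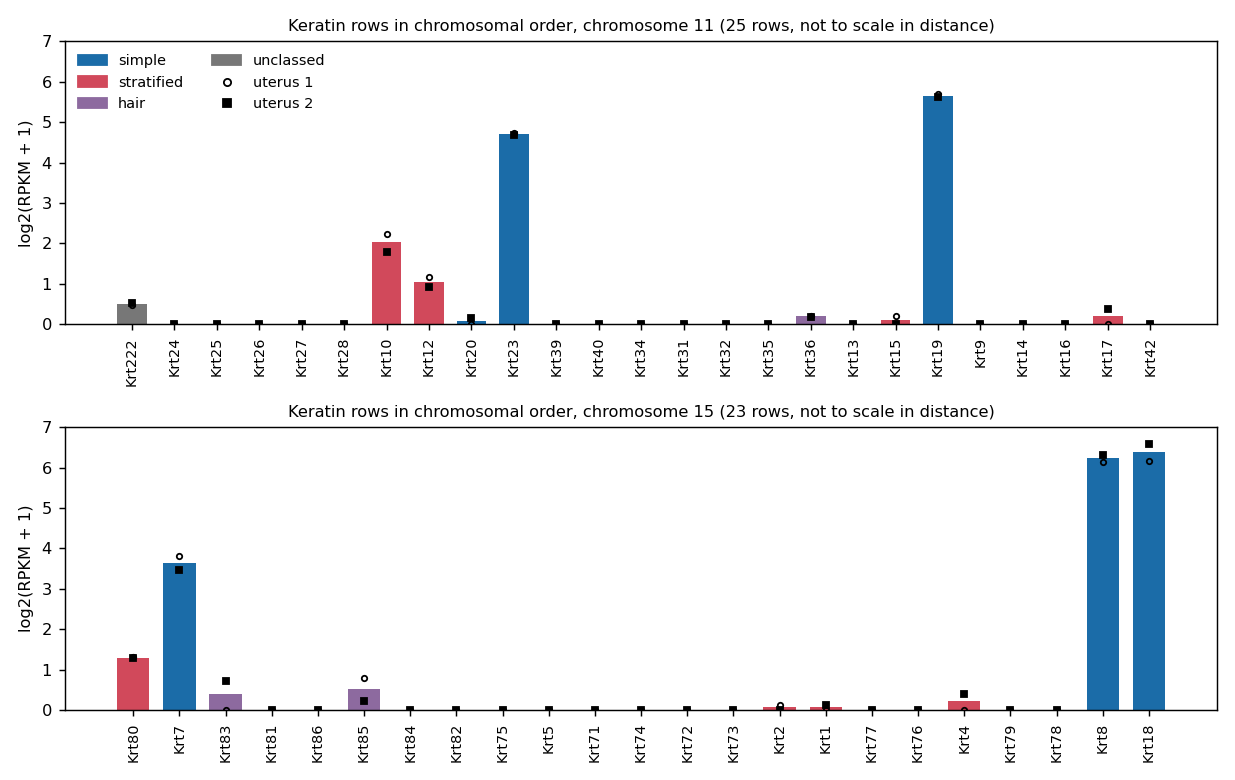
Bars give log2(mean RPKM + 1) of each keratin row in chromosomal order on chromosome 11 (25 rows) and chromosome 15 (23 rows), coloured by class, with uterus 1 as open circles and uterus 2 as filled squares. Tall bars stand at Krt23 and Krt19 on chromosome 11 and at Krt7, Krt8 and Krt18 near the ends of the chromosome 15 row, with rows at or near 0 between them.

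The start regions of these genes were read from NCBIM37 as the 250 bases before each deposited transcript start. Shown are the pair Krt18 and Krt8, Krt19 with its GC boxes, and for contrast Krt10, which has the letters TATAAA. Capitals mark matches on either strand to GGGCGG (a GC box), to TATAAA (the box bound by TFIID), to CCAAT (bound by NF-Y), and to TGANTCA, an AP-1 site. A match to any of these was not masked from the others.
Krt18 promoter, chr15:101858397-101858646, plus strand: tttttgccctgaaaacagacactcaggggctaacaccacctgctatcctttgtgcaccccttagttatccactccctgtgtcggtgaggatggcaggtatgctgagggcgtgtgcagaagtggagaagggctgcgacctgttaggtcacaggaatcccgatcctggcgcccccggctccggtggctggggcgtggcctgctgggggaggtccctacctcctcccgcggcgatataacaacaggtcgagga
Krt8 promoter, chr15:101834774-101835023, minus strand: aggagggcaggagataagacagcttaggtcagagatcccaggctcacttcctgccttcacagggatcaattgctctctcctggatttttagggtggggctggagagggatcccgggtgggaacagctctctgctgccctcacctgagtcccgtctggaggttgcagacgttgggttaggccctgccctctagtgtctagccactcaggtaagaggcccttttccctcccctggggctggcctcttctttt
Krt19 promoter, chr11:100007234-100007483, minus strand: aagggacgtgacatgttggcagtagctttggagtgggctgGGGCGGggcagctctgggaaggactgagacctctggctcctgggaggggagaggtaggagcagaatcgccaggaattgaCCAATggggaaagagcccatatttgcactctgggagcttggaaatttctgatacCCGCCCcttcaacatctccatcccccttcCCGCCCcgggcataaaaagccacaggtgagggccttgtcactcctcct
Krt10 promoter, chr11:99250679-99250928, minus strand: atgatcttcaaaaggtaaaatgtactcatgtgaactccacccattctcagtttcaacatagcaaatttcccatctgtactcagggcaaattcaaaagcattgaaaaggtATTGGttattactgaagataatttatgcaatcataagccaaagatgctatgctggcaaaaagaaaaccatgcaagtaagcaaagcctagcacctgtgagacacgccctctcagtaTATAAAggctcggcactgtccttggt

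TATAAA was found in 22 of the 48 keratin windows (45.8%), against 11.9% of 22663 windows of all rows. None of the 5 highest keratins had it. Of the 8 keratins averaging 1 RPKM or more it was found in 2, Krt10 and Krt12, where it began 26 and 29 bases before the start; over all rows at that level the share was 6.75%. Of the 30 keratins listed at 0 in both uteri, 17 had it (56.7%), against 25.1% of all rows listed at 0. GGGCGG was found in Krt19 (3 times), Krt7 (4 times) and Krt80 among the 8 (37.5%), against 58.4% of all rows at that level, and in 8 of all 48 (16.7%), against 43.3% of all rows. CCAAT was found in 33.3% of keratin windows and 35.6% of all windows, and TGANTCA in 6.25% and 6.13%. GC content had a median of 58.0% in the 5 highest keratins, 49.6% in the 30 listed at 0 and 55.6% in all rows. Over all rows averaging 1 RPKM or more the median was 60.0%, and over all rows listed at 0 it was 44.8%. A match describes letters in these windows and no match says nothing about a factor.

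Between the 2 animals the 5 highest keratins were less than 2-fold apart, counting intervals included. Ratios are log2 of uterus 2 over uterus 1 with 0.1 RPKM added to each value, which understates the change of low genes. Over the 8 keratins averaging 1 RPKM or more the ratio ran from -0.58 (Krt10) to 0.42 (Krt18), with a median of -0.08 against 0.00067 over all genes at that level. Only Krt18 and Krt8 were higher in uterus 2, and the other 6 were lower in value. None was 2-fold apart, against 2.60% of all 13647 genes averaging 1 RPKM or more. With 8 genes, this count cannot set keratins apart from other genes. The log2 counting intervals of Krt10 (-1.46 to 0.24), Krt80 (-1.39 to 1.38) and Krt12 (-2.17 to 1.08) also reach beyond 2-fold.

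A two-sided exact binomial test compared the recovered reads of the 2 libraries for each gene with at least 6 reads in sum. It called 4.44% of 15082 genes at a Benjamini-Hochberg adjusted p under 0.05, 2.03% higher in uterus 2 and 2.41% higher in uterus 1. Of the 9 keratins tested it called 1, Krt18, which was higher in uterus 2 by 0.42 on the log2 scale (exact 95% interval 0.23 to 0.61, adjusted p 0.00068 in the exact binomial test). Krt8, in the same direction at 0.18, had an unadjusted p of 0.0446 and an adjusted p of 0.313 in that exact test. Krt19, Krt23 and Krt7 had adjusted p-values of 0.846, 0.964 and 0.534 in it. The test compares 2 libraries against counting error and not conditions. With the smallest whole reads that fit the values, the adjusted p of Krt18 was 0.0499 in the exact test, since its reads are then 189 and 281. The annotated Krt18 transcript of 1400 bases matches the length at 378 and 562 reads.

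Copies of Krt18 and Krt8 elsewhere in the genome bear on these values. The Krt18 transcript aligned to 3 other places on NCBIM37 over at least 25% of its length, the longest on chromosome 13 (118246579 to 118247928) over 98.5% of the transcript at 90.3% identity. Krt8 aligned to 2, of which chromosome 7 (24142113 to 24143830) covers 96.0% at 97.9% identity. How the authors' counting treated reads that fit both a gene and such a copy is not given in the sources used here, so both levels are uncertain in that respect. No such copy was found for Krt19, Krt23, Krt7 or Krt10.

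**Figure D3:**
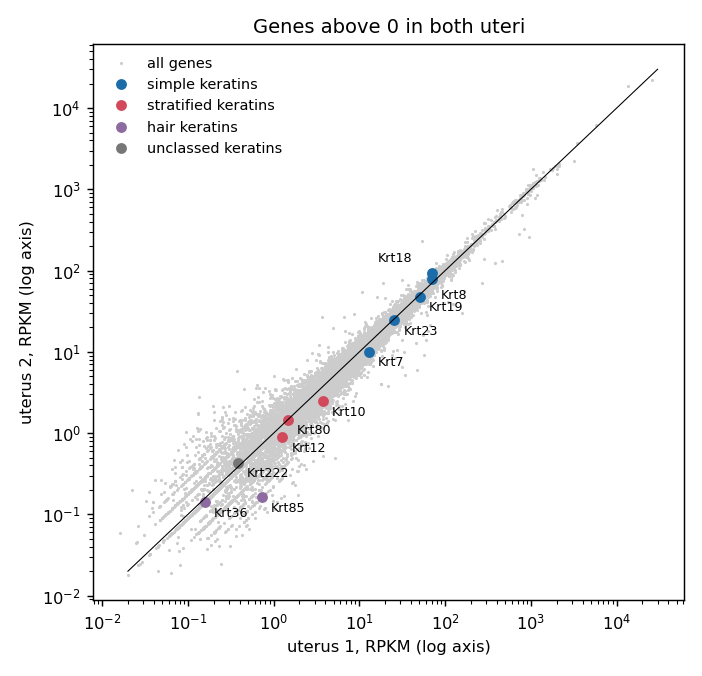
RPKM in uterus 1 (x) against uterus 2 (y), log axes, for genes above 0 in both; grey points are all genes, coloured points the keratins by class, and the line marks equal values. The 5 highest keratins lie along the line, with Krt18 above it at 70.4 and 94.3 RPKM, and Krt85 far below it rests on 4 and 1 reads.

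Markers of the cell types that could carry keratins were read beside these values. In whole tissue, fewer cells of a type and less RNA per cell cannot be told apart. All 15 general epithelial genes were measured. Of these, 14 were at 1 RPKM or more in both uteri, against 58.4% of all genes, with a median of 10.8 RPKM. Cldn3, a tight junction claudin, was highest at 121.2 ± 6.45 RPKM, Spint2, a protease inhibitor, lay at 38.5 ± 5.47 RPKM, Epcam, an epithelial adhesion molecule, at 29.98 ± 4.998 RPKM, and Cdh1, E-cadherin, at 25.6 ± 1.099 RPKM. Beside the higher Krt18 in uterus 2, 8 of the 14 averaging 1 RPKM or more were higher there and 6 lower, and their summed level was 334.0 and 328.7 RPKM. Epcam was higher in uterus 2, at 26.4 and 33.5 RPKM (adjusted p 0.131 in the exact binomial test). Cldn3, Spint2 and Cdh1 were lower there, at 125.8 and 116.6, 42.3 and 34.6, and 26.4 and 24.9 RPKM. Across the 15 the exact test called 1, against 4.44% of all genes: Cldn4, at 11.4 RPKM in uterus 1 against 5.19 in uterus 2 (adjusted p 0.00236).

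Mesothelial genes were present at lower levels. Of 7 measured, 6 were at 1 RPKM or more in both uteri, against 58.4% of all genes. The 7 had a median of 3.38 RPKM and a summed level of 55.7 and 56.0 RPKM. Upk3b, a uroplakin of mesothelial cells, lay at 5.76 and 7.27 RPKM and Msln, mesothelin, at 3.21 and 3.55 RPKM. Wt1, at 38.2 and 35.0 RPKM (mean 36.6 ± 2.30), made up most of the summed level and is also made by uterine stroma and muscle. Among the 6 averaging 1 RPKM or more, 4 were higher in uterus 2 and 2 lower, Wt1 and Lrrn4 (3.08 and 2.50 RPKM). Bnc1, with a mean under 1 RPKM, was lower too, at 0.951 and 0.453 RPKM. The exact binomial test called none of the 7 at an adjusted p under 0.05, against 4.44% of all genes. The part of either cell type in the Krt18 difference was not tested.

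Markers of stratified epithelium were low. Of 21 measured, 2 (Sbsn and Lgals7) were at 1 RPKM or more in both uteri, against 58.4% of all genes. Another 9 were listed at 0 in both, and the summed level was 7.06 and 7.55 RPKM. Dsg3, the basal cell desmoglein, was listed at 0 in both, Trp63, the basal cell transcription factor, lay at 0.0861 and 0.272 RPKM (2 and 7 reads), and the highest was Sbsn, suprabasin, at 2.17 and 1.85 RPKM. Among 10 hair follicle genes, 7 were listed at 0 in both, among them Hoxc13 and Foxn1, transcription factors of the follicle, and none was at 1 RPKM in both. Of 52 Krtap rows, 1 was above 0, at 0.308 RPKM.

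Transcripts of 17 plakin, desmosome and hemidesmosome genes, whose proteins tie filaments to cell junctions, were also read. Of these, 14 were at 1 RPKM or more in both uteri, against 58.4% of all genes, with a median of 6.86 RPKM. Plec, the cytolinker plectin, was highest at 51.3 ± 3.16 RPKM, followed by Macf1 at 47.7 ± 2.86 RPKM and the integrin Itga6 at 38.6 ± 1.31 RPKM, all 3 of which are also made outside epithelium. Of the desmosome genes, Dsp, desmoplakin, which anchors keratins to desmosomes, lay at 7.31 and 7.23 RPKM and Jup, plakoglobin, at 11.1 and 9.57 RPKM. Pkp1, the plakophilin of stratified epithelium, was listed at 0 in both. The exact binomial test called 4 of the 16 tested, against 4.44% of all genes: Dst and Macf1 were higher in uterus 2, and Plec and Itgb4 higher in uterus 1. Itgb4, the hemidesmosome integrin, had the largest difference of the 4, 8.50 RPKM (201 reads) in uterus 1 against 5.22 RPKM (137 reads) in uterus 2 (log2 ratio -0.69, adjusted p 0.00064 in the exact test). Dst, Macf1 and Plec held 2214 to 4977 reads per library, and their log2 ratios were 0.21, 0.12 and -0.13.

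Of the other intermediate filament genes, Vim and Des stood above every keratin. Vim, vimentin of stroma and vessels, lay at 447 and 522 RPKM and Des, desmin of smooth muscle, at 216 and 219 RPKM. Krt18 was at 0.157 of the Vim level in uterus 1 and 0.181 in uterus 2. The nuclear lamin Lmna lay at 61.6 ± 2.60 RPKM, between Krt8 and Krt19. Of 18 such genes, 10 were at 1 RPKM or more in both uteri, against 58.4% of all genes. Of the 14 tested, the exact binomial test called 1, against 4.44% of all genes: Vim, higher in uterus 2 (adjusted p 1.5e-08, log2 ratio 0.22).

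A last list of 15 genes held chaperones, adaptors and modifying enzymes that act on many proteins, beside a few keratin-binding proteins such as Tchp, trichoplein. Not every gene in it has an established role with keratins: no such role is taken here for Krtcap2, Krtcap3 and Trp53inp1. Of the 15, 14 were at 1 RPKM or more in both uteri, against 58.4% of all genes, with a median of 30.9 RPKM. Trim29, a gene of basal epithelium, was the exception at 0.0922 RPKM (1 read) in uterus 1 and a listed 0 in uterus 2. Tgm2, a transglutaminase, was highest at 176.0 ± 2.04 RPKM, and the small heat shock protein Hspb1 lay at 78.9 and 87.9 RPKM. The exact binomial test called 1 of 14 tested, against 4.44% of all genes: Trp53inp1, at 26.8 and 35.0 RPKM. Most of these genes act in many cell types besides epithelium.

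**Figure D4:**
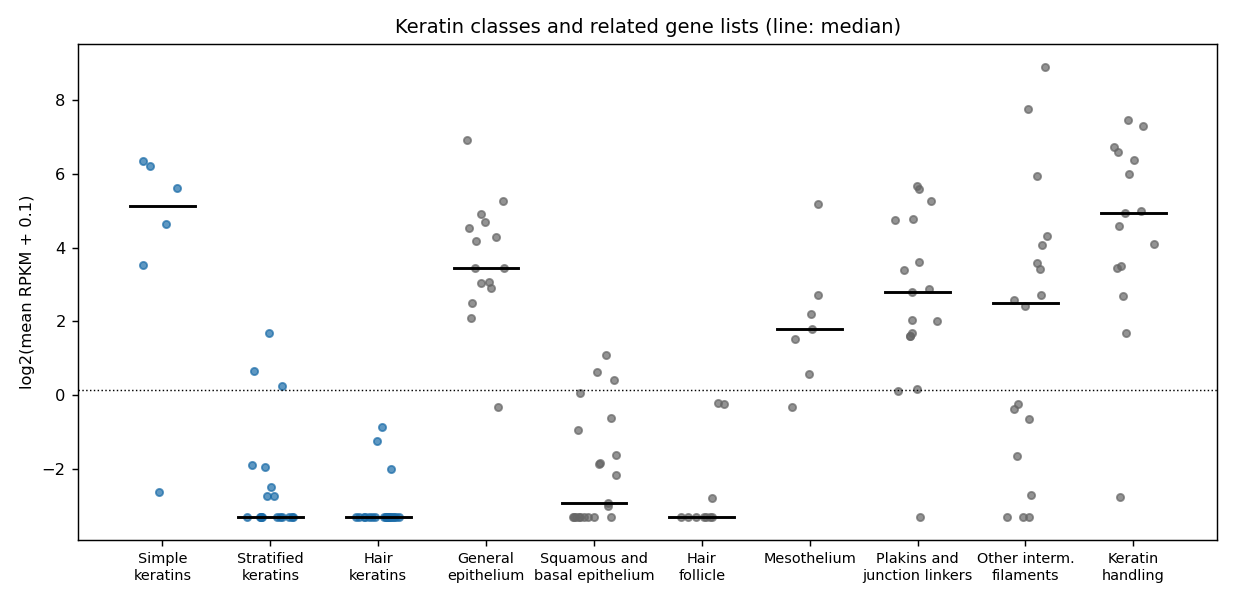
Each point is a gene, at log2(mean RPKM + 0.1) over the 2 uteri, for the keratin classes (blue) and the related lists (grey); black lines are medians and the dotted line marks 1 RPKM. Simple keratins other than Krt20 lie in the range of general epithelial genes, and most stratified and all hair keratins lie below the dotted line. Above it stand the stratified keratins Krt10, Krt80 and Krt12 and the squamous genes Sbsn, Lgals7 and Sfn, all under 4 RPKM.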

How the data were processed

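RNA was taken from whole uteri with TRIzol, and libraries were made with the TruSeq RNA kit, per the labels' protocols, after poly-A selection, per the series' design text. The deposited RPKM values were computed by the authors, per the labels. The authors' tools TopHat and edgeR and their build mm9 are named in the submitters' processing notes. How reads were counted, with which annotation and whether by strand, is not given in the sources used here. Rows were matched to chromosome positions through the deposited annotated table, whose RPKM values equal those of the main table. Of 20733 genes found in GENCODE M1 (NCBIM37), 11970 had an annotated start 1 base after the deposited start, so coordinates are given counted from 1.

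Each RPKM value times the library's scaling total is reads over length, a ratio of whole numbers. The totals, 3834174 and 4256101 after rounding, came from single-exon genes. For 17424 of 17426 genes above 0, the ratio was found within a relative tolerance of 1e-11 with lengths up to 30000. A common factor was set to 1 unless a multiple came within 2% of an annotated transcript length; this held for 1744 genes, and 6764 have no matching length and keep the smallest whole reads. Reads were compared with an exact binomial test in scipy 1.17.1 with Benjamini-Hochberg adjustment over all genes with at least 6 reads. Copies were sought with minimap2 2.31 and related transcripts with blastn 2.17.0.

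The keratins, classes and gene lists were chosen with earlier results of these data known. All keratins averaging 1 RPKM or more are named with their values, and of each list the highest members and those a result turns on. Levels were also recomputed with other thresholds, pseudocounts, scales and class lists, and without either library.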

Additional observations from a re-analysis of the deposited data

How the results depend on the processing

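The number of keratins at 1 RPKM or more in both uteri, 7, stayed between 5 and 8 under all thresholds, scales and symbol rules tried, and was 7 in uterus 2 alone and 8 in uterus 1 alone. The simple keratin share of 97.0% became 96.2% on recovered reads, 86.9% with Krt23 counted as stratified, 97.6% with Krt80 counted as simple and 93.8% with 5430421N21Rik counted, and ran from 96.6% to 97.4% in single uteri. The stratified share of 2.47% became 12.5% with Krt23 counted as stratified and 1.89% with Krt80 counted as simple, and ran from 2.12% to 2.83% in single uteri. The hair share of 0.366% became 3.64% with 5430421N21Rik counted, and ran from 0.361% to 0.371%. The type II to type I ratio of 0.544 became 0.673 on recovered reads, 0.909 for Krt8 against Krt18 alone and 0.596 with 5430421N21Rik counted, and ran from 0.533 to 0.554 in single uteri. Counting 5430421N21Rik, using RefSeq names and the alternatives for the stratified and hair shares were chosen after seeing the data. No keratin averaging 1 RPKM or more was 2-fold apart under any pseudocount, while without that filter 6 were, all with at most 5 reads per library. The exact binomial test called Krt18 alone among keratins under all 3 alternatives, with adjusted p-values from 0.0006 to 0.0499. No log2 ratio of a called keratin changed sign. Depth limits the low members: keratins with a mean under 1 RPKM had 5 reads or fewer in each library. No paired analysis was possible because the libraries form a single group.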
